A study of Mus musculus with 8 samples.

Results

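The 4 vehicle-treated tumours of a study of mammary tumours in MMTV-PyVmT mice were described on their own, as the baseline expression of this model without drug. They were chosen by their titles and make up 4 of the 8 samples in all. The other 4 tumours came from animals given SKI-606, a Src and Abl kinase inhibitor known as bosutinib, at 100 mg/kg in 0.5% methocellulose with 0.4% detergent. All 8 tumours came from female FVB/N-Tg(MMTV-PyVT)634Mul/J mice, and in each case 8 ng of total RNA was taken into cDNA and hybridised to 1 Illumina mouse beadchip array. The labels give neither the age of the animals nor what the vehicle group received beyond its name. The tumours are called vehicle tumours 1 to 4 after their titles, and the 1 title without a number was called 3, which is only a name. The protocol speaks of RNA from each mouse but ties no array to an animal, so the spread given below is the spread between these samples.

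In this model the mouse mammary tumour virus promoter drives the polyoma virus middle T antigen mainly in mammary epithelium. Middle T antigen is a membrane protein with no enzyme activity of its own that assembles Src family kinases, PI3 kinase and the Ras adaptor Shc, and the females develop multifocal carcinomas of luminal type. Bulk tumour RNA also holds the RNA of stroma, vessels, immune cells and whatever tissue was excised with the tumour, and fewer cells of a type cannot be told apart here from less RNA per cell.

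A probe was kept where its detection p-value, the chance of such a signal from the array's negative controls, was under 0.05 on all 4 vehicle arrays. Of 24607 probes, 11062 were kept, or 45%. Named probes covered 7626 genes, of which 3780 were kept, or 49.6%. Values are normalized log2 signals, on which 1 unit is a 2-fold difference, the lowest value on any vehicle array was 5.86 and the brightest 14.26. With 4 arrays the precision of any one value is limited. Detected probes numbered between 11957 and 12578 per vehicle array, with tumour 4 the lowest, and the mean raw signal ran from 313 in tumour 4 to 420 in tumour 2.

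Vehicle tumours 2 and 4 stood apart from the other vehicle tumours. Across the kept probes, tumours 1 and 3 correlated at 0.992 and differed by more than 2-fold at 44 probes. Tumour 2 differed by more than 2-fold from tumour 1 at 208 probes and from tumour 3 at 201. Tumour 4 differed from the other 3 at 462 to 555 probes. A tumour was counted as apart at a probe where it lay more than 1 from the nearest of the other 3. Tumour 4 was apart and low at 248 of 11062 probes (2.24%) and apart and high at 44 (0.398%), and tumour 2 was apart and high at 107 (0.967%). It was apart and low at 9 (0.0814%). Tumour 1 was apart and high at 8 (0.0723%) and low at 3 (0.0271%), and tumour 3 high at 7 (0.0633%) and low at 4 (0.0362%), so these had few probes of their own. Results below that rest on tumours 2 or 4 name that tumour.

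The brightest named probes belonged to the protein synthesis machinery. Brightness depends on the probe as well as on the transcript, so no order of transcripts is read from it. Of the 20 brightest, 16 carried the Rpl or Rps symbol of a ribosomal protein, led by Rpl24 at 14.15, 14.22, 14.26 and 14.06 in tumours 1 to 4. The others included Rps27l, a gene related to Rps27, the ubiquitin gene Ubb, and Ppia, which encodes the peptidyl-prolyl isomerase cyclophilin A. Their values differed little between the tumours: Ubb read 14.13, 14.15, 14.13 and 14.19. Genes of secretory mammary epithelium were bright as well. Xbp1, a transcription factor of the secretory pathway, read 14.03, 13.87, 13.80 and 13.84, and the kappa-casein gene Csn3 read 13.85, 13.78, 14.00 and 13.57. The iron carrier gene Trf, which is made by mammary epithelium as well as by liver, read 13.79, 13.50, 13.97 and 14.07. All of these lay close to the top of the scale, where differences are compressed.

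Most markers of luminal mammary epithelium were detected in all 4 tumours. Of 16 luminal genes with a named probe, 14 were kept, against 49.6% of all named genes, and fibroblast, endothelial and macrophage lists had like shares. The luminal keratin Krt8 read 13.15, 12.89, 13.14 and 13.12, and its partner Krt18 read 12.38, 11.81, 12.15 and 12.39. Gata3, the transcription factor of luminal fate, averaged 11.3 and Tfap2c, a transcription factor of the AP-2 family, 12.4. Prom1, a surface protein of luminal cells, read 11.59, 11.09, 11.32 and 11.00, and the receptor tyrosine kinase gene Erbb2 read 8.13, 8.15, 7.88 and 8.10. The mean of the luminal list differed least between tumours among lists with at least 3 kept genes, between -0.01 and 0.01 of its vehicle mean, while its members moved both ways. The median SD of its members was 0.128, against 0.0878 for the ribosomal protein genes. Cldn4, a tight junction claudin, was the 1 member with a range over 1, at 10.76, 11.44, 10.39 and 10.19. The estrogen receptor gene Esr1 was kept at a mean of 6.3, near the floor. Of 10 basal and myoepithelial genes, 8 were kept. The hemidesmosome integrin gene Itgb4 was the brightest of them at 10.88, 10.78, 10.75 and 10.75, while Acta2, smooth muscle actin, averaged 6.3, near the floor, and Cnn1, calponin, was not kept. Mylk, the myosin light chain kinase gene of contractile cells, read 7.92, 7.86, 7.26 and 7.98.

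Stroma and macrophage markers were detected in every vehicle tumour, and few T and NK cell or neutrophil markers were detected in all 4. Of 16 fibroblast and matrix genes 14 were kept, as were 6 of 7 endothelial, 8 of 10 macrophage and 4 of 4 MHC class II genes. Decorin, the matrix proteoglycan of fibroblasts encoded by Dcn, read 11.50, 12.33, 11.71 and 11.02. Emcn, an endothelial sialomucin, read 8.83, 9.10, 8.73 and 8.89. Among macrophage genes, lysozyme 2 (Lyz2) read 10.75, 11.02, 10.73 and 10.86 and the complement gene C1qb 9.92, 9.55, 9.77 and 9.95, with SDs of 0.14 and 0.18. Spp1, which encodes osteopontin and is made by macrophages and by carcinoma cells, read 13.59, 13.48, 13.51 and 12.24. Of 7 T and NK cell genes 1 was kept and of 6 neutrophil genes 1, against 49.6% of all named genes. Of 5 B and plasma cell genes 2 were kept and of 3 mast cell genes 2, too few genes to set against that share. Most of the kept ones were near the floor, as Il7r, the interleukin 7 receptor of T cells, at 6.16, 6.26, 6.18 and 6.12. Immunoglobulin kappa was an exception: Igkc read 6.30, 7.22, 8.75 and 7.47, highest in tumour 3 and lowest in tumour 1, a 5.46-fold range. Among the neutrophil genes not kept, S100a9, a calcium-binding protein of neutrophils that epidermis can also express, read 6.67, 9.74, 6.06 and 5.99. It was detected in tumours 1 and 2 and was high in tumour 2, and it read 10.25 in SKI-606 tumour 2 against 5.98 to 6.82 in the other SKI-606 tumours. The alpha globin gene Hba-a1 of red cells was bright, at 10.71, 11.64, 10.61 and 11.09, while the other 2 erythroid genes with a probe were not kept. The lists were written for this model, so their shares describe these samples and say nothing of other genes. As a check of the labelled sex, 4 of 4 Y-linked genes with a probe were not detected on all 4 vehicle arrays.

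The casein genes Csn2 and Csn1s1 separated the vehicle tumours from one another. Caseins are the main milk proteins, and prolactin induces their genes through the transcription factor STAT5. Csn2, which encodes beta-casein, read 9.81, 10.37, 12.75 and 12.67 in tumours 1 to 4. Tumours 3 and 4 were high and tumours 1 and 2 low, with a 7.68-fold range and an SD of 1.53. Csn1s1, which encodes alpha-S1-casein, read 10.22, 11.80, 12.84 and 11.71, a 6.15-fold range with an SD of 1.08. Tumour 1 was low for both caseins and tumour 3 high for both, while tumour 2 was level with tumour 4 for Csn1s1 and below it for Csn2. Fabp3, a fatty acid carrier that rises in the lactating gland, read 6.16, 6.20, 7.35 and 8.20, with tumours 1 and 2 near the floor. Its order followed Csn2 in that tumours 3 and 4 were higher, but Fabp3 was highest in tumour 4. Cel, the bile salt-stimulated lipase of milk, read 7.26, 8.71, 7.99 and 6.91 and took another order. Csn3, Trf and Ltf, the lactoferrin gene, varied by less than 2-fold, but they lay close to the top of the scale, where differences are compressed. Of the 7 milk genes kept of 8 with a probe, 4 had a range over 1, against 7.59% of the 3780 genes, and the same 4 had it among tumours 1 to 3 (2.17% of genes). The list mean lay 0.67 below its vehicle mean in tumour 1 and 0.54 above it in tumour 3.

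The Csn2 and Csn1s1 promoters are shown because these genes varied together in part. They were read from RefSeq's table for mouse build GRCm38.p6, from 250 bases before to 50 after the gene start. Capitals mark the STAT5 consensus, searched as TTCNNNGAA, which is its own reverse complement. Csn2 lies at chr5:87699376-87699675 on the minus strand and Csn1s1 at chr5:87665958-87666257 on the plus strand, and both are printed in the direction of transcription.
Csn2: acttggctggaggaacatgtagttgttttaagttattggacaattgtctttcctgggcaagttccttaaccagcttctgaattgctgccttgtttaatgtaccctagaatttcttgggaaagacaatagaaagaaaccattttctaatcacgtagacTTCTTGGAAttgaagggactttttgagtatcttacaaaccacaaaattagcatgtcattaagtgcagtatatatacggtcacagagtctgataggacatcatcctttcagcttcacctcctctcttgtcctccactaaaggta
Csn1s1: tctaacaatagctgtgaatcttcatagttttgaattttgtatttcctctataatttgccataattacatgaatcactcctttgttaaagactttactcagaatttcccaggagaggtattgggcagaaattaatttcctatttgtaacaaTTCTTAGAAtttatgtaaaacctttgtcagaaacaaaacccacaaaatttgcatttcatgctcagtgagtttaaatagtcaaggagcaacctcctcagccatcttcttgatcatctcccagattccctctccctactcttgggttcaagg
The motif began at position -93 of Csn2 and -100 of Csn1s1, and 8.30% of the 32851 promoters in the table hold it. It is a match of letters, and no binding was measured.

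**Figure D1:**
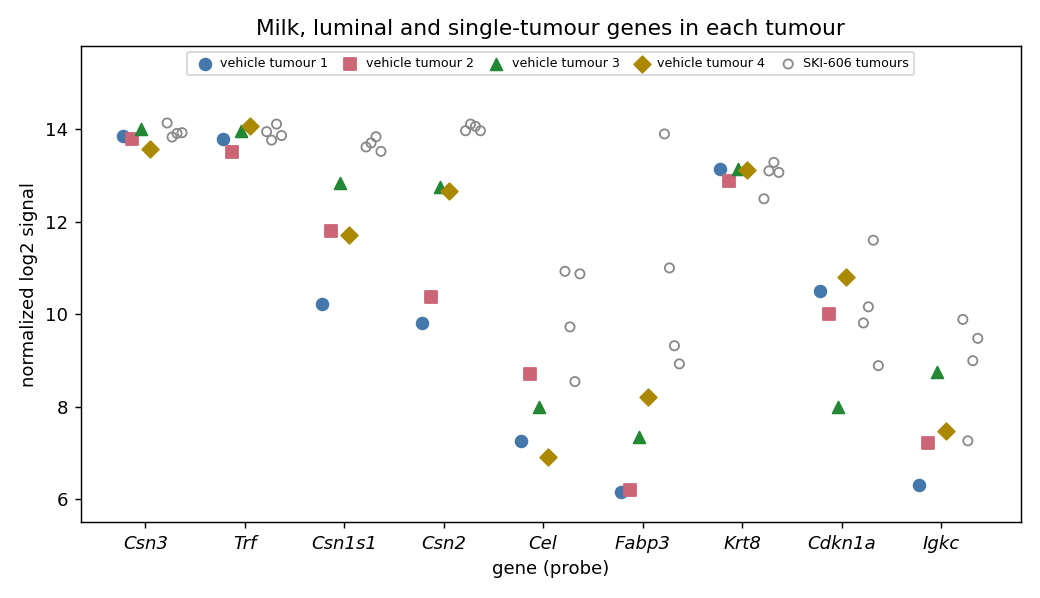
Normalized log2 signal (vertical axis) of milk genes, Krt8, Cdkn1a and Igkc in each tumour, with filled coloured symbols for vehicle tumours 1 to 4 and open grey circles for the 4 SKI-606 tumours. Csn2 lies at 9.81 and 10.37 in vehicle tumours 1 and 2 and at 12.75 and 12.67 in tumours 3 and 4, while Krt8 stays between 12.89 and 13.15.

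Vehicle tumour 2 carried a set of skin and hair genes. Its largest differences were in Klk6, a kallikrein-type serine protease, which read 6.28, 12.03, 6.31 and 6.32, a 53.9-fold range, and in Stfa1, which encodes the cysteine protease inhibitor stefin A1 and read 6.73, 11.22, 6.27 and 6.16. Krt10, the keratin of suprabasal epidermis, read 7.23, 10.32, 6.96 and 7.23, and Krt15, a keratin of basal epidermis and hair follicle, 7.26, 9.89, 7.34 and 6.62. In each of these tumour 2 was high and the other 3 did not come near it. Krt17, a keratin of hair follicle and of basal epithelium, read 9.82, 11.36, 8.79 and 8.67. The 107 probes high in tumour 2 named 30 genes, among them Sbsn (suprabasin) and Ppl (periplakin) of the cornified layer, and Gjb2, the gap junction gene of connexin 26. The transcription factor gene Sox21 and the growth factor gene Ptn were there too. These were named because tumour 2 stood apart in them. Gpnmb, a glycoprotein of macrophages and pigment cells, read 8.01, 10.23, 7.84 and 8.86, and the macrophage elastase gene Mmp12 8.37, 9.69, 7.18 and 6.84.

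The same tumour also had genes that the requirement of detection on all 4 arrays leaves out. At 60 of the 13545 probes not kept (0.443%) tumour 2 alone had a detected signal and lay more than 1 above the other 3. For tumour 4 this count was 17 (0.126%), and for tumours 1 and 3 it was 0. The 60 probes named 20 genes, of which 7 were keratins, 6 keratin-associated proteins of the hair shaft and 3 late cornified envelope genes. Krt34, a hair keratin, read 6.05, 11.64, 5.98 and 6.01. It was at least 47.5-fold higher in tumour 2 than the mean of the others, where it was not detected. The hair keratin gene Krt86 was at least 38.1-fold higher, at 11.32. Krt6a, a keratin of hair follicle and of activated epidermis, reached 10.11 in tumour 2 (at least 16.5-fold), and Krtdap, of differentiating keratinocytes, 9.98 (at least 15.1-fold). Bounds compare a tumour with the mean of the other 3, and an array's lowest detected signal stood in where a gene was not detected. Closely related keratins may share signal at a probe. Of the 6 keratinocyte genes with a probe in the list, Krt10 and Krt15 were kept, Krt6a and Krtdap were detected in tumour 2 alone, and Dsg1a, a desmoglein of epidermis, was near the floor in all 4. Dsc1, a desmocollin of epidermis, was not kept either, at 5.93, 6.50, 5.92 and 5.95.

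The SKI-606 tumours, which did not choose these probes, were read at the same probes. Among them SKI-606 tumour 2 was the highest at 92 of the 107 probes, or 86.0%, against 21.8% of all kept probes. It lay more than 1 above the other 3 SKI-606 tumours at 66 of the 107. All 60 of the probes that tumour 2 alone detected among the vehicle tumours were detected in SKI-606 tumour 2 as well, against 0, 5 and 0 in SKI-606 tumours 1, 3 and 4. Klk6 read 6.17, 11.31, 6.22 and 6.03 in SKI-606 tumours 1 to 4, and Krt34 read 5.99, 10.06, 6.06 and 5.98. The set was thus bright in 1 tumour of each group. Both titles carry the number 2. Over the probes detected on all 8 arrays, deviations of these 2 tumours from their group means correlated at 0.54. Those probes include some of this set, such as that of Krt10. For the numbers 1 and 4 the correlations were 0.02 and -0.04. What the number stands for was not tested. The source name of SKI-606 tumour 2 describes human islet cells, against its organism, strain and title. Without tumour 2, 580 probes had a range over 1 among the other vehicle tumours.

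**Figure D2:**
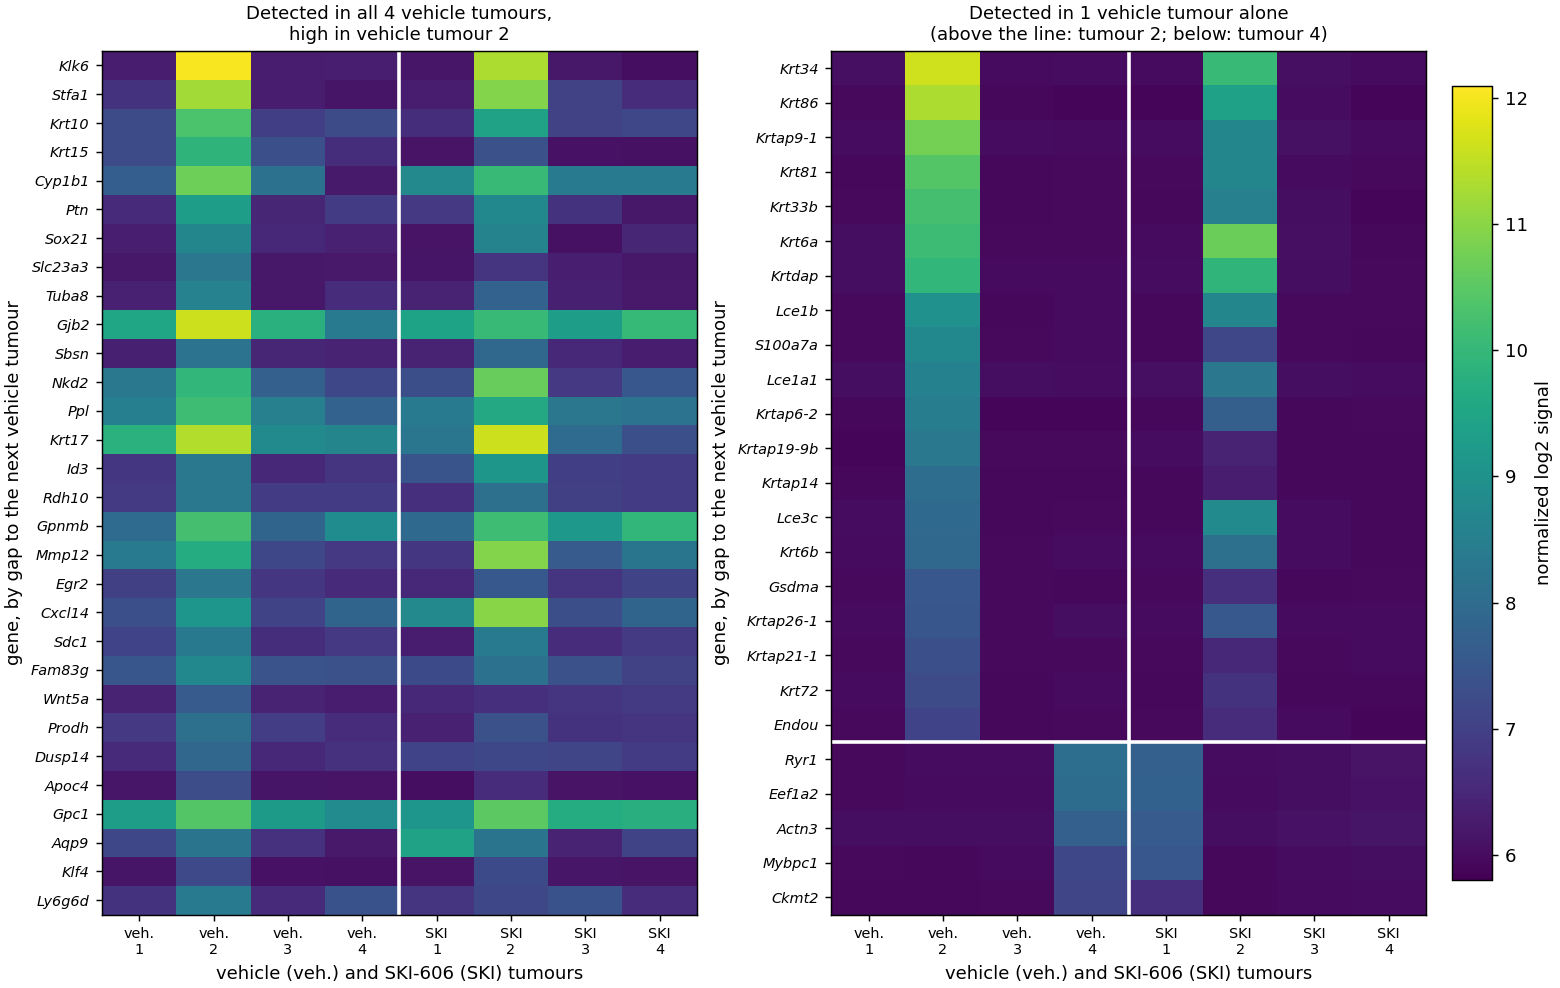
Normalized log2 signal (colour) of genes that stood apart in 1 vehicle tumour, in vehicle tumours 1 to 4 and SKI-606 tumours 1 to 4 (columns). On the left are the 30 genes kept and high in vehicle tumour 2, on the right the 20 genes detected in vehicle tumour 2 alone and the 5 detected in vehicle tumour 4 alone. SKI-606 tumour 2 is bright for most genes that are bright in vehicle tumour 2, with Klk6 at 11.31 against 12.03, and SKI-606 tumour 1 for the 5 of vehicle tumour 4, with Ryr1 at 7.72 against 8.07.

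Vehicle tumour 4 carried skeletal muscle genes, and most of the fat genes and all 4 MHC class II genes kept were highest there. Eno3, the muscle enolase, read 6.26, 6.37, 6.43 and 9.53, a 9.65-fold range. Of the 5 muscle genes with a probe, Eno3 alone was kept. Ryr1, the calcium release channel of muscle, was detected in tumour 4 alone, at 8.07 (at least 4.01-fold higher), as was the muscle actinin gene Actn3 at 7.74 (at least 3.21-fold). Myh7, the slow myosin heavy chain, read 5.95, 5.95, 5.95 and 5.90 and was not detected, and the calsequestrin gene Casq1 was not kept, at 6.50 in tumour 4. Mybpc1, a myosin-binding protein, and Ckmt2, the sarcomeric mitochondrial creatine kinase, were further genes detected in tumour 4 alone, at 7.17 and 7.12, and Cmya5, a muscle protein, was high there among kept genes. The 17 probes detected in tumour 4 alone were all detected in SKI-606 tumour 1 too, against 2, 8 and 14 in SKI-606 tumours 2, 3 and 4. At 16 of them SKI-606 tumour 1 lay more than 1 above the other 3.

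The carbonic anhydrase gene Car3, expressed in both fat and muscle, read 8.84, 8.81, 9.34 and 11.50 at its brighter probe and 6.21, 6.13, 6.22 and 7.96 at the other. Plin4, a lipid droplet coat gene of adipocytes, read 6.61, 7.17, 7.58 and 8.50, and the lipoprotein lipase gene Lpl 8.01, 8.69, 8.99 and 9.47. Both were lowest in tumour 1 and highest in tumour 4. Fabp4, a defining adipocyte gene, was not kept, at 5.96, 5.97, 5.96 and 5.98. Of the 6 adipocyte genes kept of 8, tumour 4 was the highest in 5, against 42.1% of all kept genes, and the list mean lay 0.68 above its vehicle mean there and 0.45 below it in tumour 1. Without tumour 4, the genes with a range over 1 went from 3 to 0 in the adipocyte list, from 1 to 0 in the MHC class II list and from 1 to 0 in the muscle list. All 4 MHC class II genes were highest in tumour 4. The invariant chain gene Cd74 read 10.12, 10.44, 10.18 and 11.09, and H2-Ab1 read 9.46, 10.18, 9.79 and 10.54, with its other probe at 8.59, 9.13, 8.61 and 9.98. Mup1, a major urinary protein gene of liver and glands, read 7.55, 6.18, 7.21 and 10.59, and the secretoglobin gene Scgb1b27 7.63, 6.08, 6.88 and 10.17. Both were low in tumour 2 and high in tumour 4. What part other tissue in the sample had in any of these differences was not tested.

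Tumour 4 was also low at a set of 248 probes of varied genes. At these probes the median difference of tumour 4 from the mean of the other 3 was -1.96, and the median range of the other 3 was 0.34. Hnrnpa1, an RNA-binding protein of splicing, read 10.79, 10.67, 10.54 and 6.86. The poly(A)-binding protein gene Pabpc1 read 11.95, 11.95, 11.83 and 8.23, and H3f3a, a histone H3.3 gene, 11.96, 12.01, 12.06 and 8.48. Tumours 1 to 3 lay close together in each, and the highest tumour was 11.9-fold to 15.2-fold above tumour 4. Mdh2, the mitochondrial malate dehydrogenase, read 10.09, 10.19, 10.47 and 6.49, the ribosomal protein gene Rps6 11.13, 10.90, 11.05 and 7.63, and the fibrillar collagen gene Col3a1 10.12, 9.41, 10.60 and 6.66. Of the 100 probes with the largest SD, tumour 4 was apart and low in 66. At a further 31 probes that were not kept (0.229%), tumour 4 alone had no detected signal and lay more than 1 below the others. One of these belonged to Rpl22l1, a ribosomal protein paralogue, which was at least 8.38-fold lower than the mean of tumours 1 to 3. In the SKI-606 tumours the median differences from vehicle tumours 1 to 3 at these probes lay between -0.29 and -0.07. SKI-606 tumour 3 was more than 1 lower at 28 of the 248 probes and SKI-606 tumour 1 at 15. Among the SKI-606 tumours, tumour 3 was the lowest at 106 of the 248, or 42.7%, against 25.9% of all kept probes.

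Other probes of the same genes followed in part or not at all in most cases. Of the genes in the set, 27 had another kept probe, and in 13 of them 15 such probes reached a signal of 7.5 in tumours 1 to 3. The low probes of these 13 genes had a median difference of -1.76 and the other probes one of -0.26. Of the 15, 7 were lower in tumour 4 by 0.56 to 1.98, 2 of them by more than 1, and 8 were within 0.5. Vdr, the vitamin D receptor gene, read 9.84, 9.67, 9.67 and 6.29 at one probe and 10.19, 10.17, 10.02 and 9.86 at the other. The ubiquitin ligase gene Trip12 read 9.15, 9.14, 9.56 and 6.23 at one probe, 10.61, 10.64, 10.66 and 9.94 at another and 10.01, 10.10, 10.23 and 9.15 at the last. Resf1, a regulator of retroelement silencing, was low at both of its probes. These were the 2 lower by more than 1, and both belonged to the low set themselves. Among the remaining other probes the lowest difference was -0.96, at a probe of Trip12. Values at 1 probe in tumour 4 are therefore not a measure of the gene as a whole. Tumour 4 also had the lowest mean raw signal of the vehicle arrays. Whether RNA quality or the array had a part in this set was not tested.

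**Figure D3:**
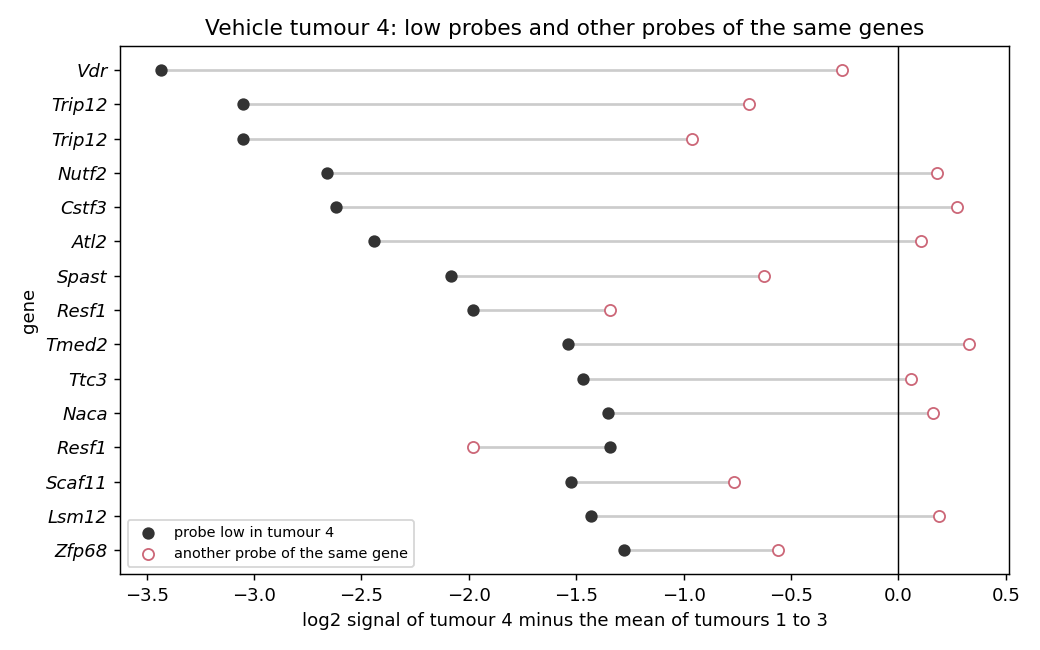
Log2 signal of vehicle tumour 4 minus the mean of vehicle tumours 1 to 3 (horizontal axis) for probes low in tumour 4 (filled) and another probe of the same gene (open), joined by a line, for 13 genes. The open points have a median of -0.26 and the distinct low probes one of -1.76. The low probe of Trip12 is drawn again for each of its other probes, and Resf1 appears with each of its probes in both roles.

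Members of some process lists were in this set. The heat shock list lay 0.64 lower in tumour 4 than its vehicle mean (a deviation of -0.64), through the mitochondrial chaperonin genes Hspe1 (10.74, 10.73, 10.93 and 8.57) and Hspd1 (11.68, 12.08, 11.88 and 10.59) and the cytosolic chaperone gene Hsp90aa1 (10.83, 10.95, 11.14 and 9.42). Hspa8, the constitutive cytosolic chaperone gene, did not follow, at 13.64, 13.46, 13.49 and 13.80. Hspa5, the chaperone of the endoplasmic reticulum, read 8.58, 8.05, 8.70 and 6.49. Of 6 heat shock genes kept, 4 had a range over 1, and without tumour 4 it was 1. Of 59 ribosomal protein genes kept, 3 had a range over 1 and none without tumour 4, and of 28 respiratory chain genes 2 and none, shares no higher than the 7.59% of all genes. In the fibroblast and matrix list tumour 4 was lowest in 10 of 14 genes, against 24.3% of all kept genes, with a list mean of -0.37 against the vehicle mean, and of its 4 genes with a range over 1 there were 2 without tumour 4.

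Among tumours 1 and 3, single genes stood out. Cdkn1a, which encodes the cell cycle inhibitor p21, read 10.50, 10.01, 8.00 and 10.80 at one probe and 10.18, 9.53, 7.74 and 10.51 at the other, so tumour 3 was lowest at both, by 2.01 and 1.79 from the next tumour. It was named because tumour 3 stood apart in it. In the SKI-606 tumours the brighter probe read 9.81, 10.16, 11.60 and 8.89. The carboxypeptidase M gene Cpm was low in tumour 3 as well, at 9.11, 9.82, 7.56 and 8.68. In tumour 1, Ptx3, which encodes the pattern recognition protein pentraxin 3, read 8.22 against 6.58 to 6.81 in the others, and the chemokine gene Cxcl1 read 9.84 against 8.58 to 8.74. Dcpp1, a gene of salivary glands, read 9.26, 7.96, 10.29 and 8.98, a 5.03-fold range with tumour 3 highest, while the other 3 salivary genes with a probe were not kept.

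Most proliferation genes were detected in all 4 vehicle tumours and, like most kept genes, differed by less than 2-fold between them. Mki67, the Ki-67 proliferation antigen, read 9.38, 9.79, 9.67 and 9.54, and the mitotic kinase gene Plk1 9.90, 10.10, 9.94 and 10.21. Of 10 mitosis genes 8 were kept, and Ccnb1, cyclin B1, was the 1 with a range over 1, at 9.31, 9.60, 9.58 and 8.26, in which tumour 4 was low. Of 11 S phase genes 9 were kept, again with 1 over that range, the replication clamp gene Pcna at 7.77, 7.83, 8.51 and 6.74. Without tumour 4, none of either list had such a range. The probes of Ccnb1 and Pcna both belonged to the set low in tumour 4, where 1 probe is not a measure of the gene. Of all named genes 49.6% were kept, and of those kept 7.59% had a range over 1. The median SDs of the kept members were 0.160 for mitosis and 0.208 for S phase genes, above the 0.141 of all kept probes. Tumour 1 was the lowest in 6 of the 8 mitosis and 5 of the 9 S phase genes, against 21.9% of all kept genes. Ccnd1, which encodes the G1 cyclin D1, differed between the same tumours at each of its 3 probes. Its brightest probe read 11.21, 12.15, 11.38 and 12.22, its next 9.79, 10.53, 9.66 and 10.65, and its dimmest 7.34, 7.78, 7.18 and 8.18, so that tumours 2 and 4 were above tumours 1 and 3 in each.

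Smaller shifts were spread over several lists. Of 12 glycolysis and hypoxia genes, 8 were highest in tumour 1, against 20.8% of all kept genes, and 8 lowest in tumour 3, against 19%. Pgk1, phosphoglycerate kinase, read 12.37, 12.30, 11.77 and 11.86, and the oxygen sensor gene Egln3 11.27, 10.84, 10.86 and 10.81. Of 12 interferon response genes, 7 were highest in tumour 1, with the immunity-related GTPase gene Irgm2 at 7.64, 7.06, 6.81 and 7.47. No kept gene of either list had a range over 1. Of 7 immediate early genes 3 had, against 7.59% of all genes, and the same 3 had it among tumours 1 to 3 (2.17% of genes). Ccn1, a matricellular growth regulator, read 8.11, 6.55, 7.50 and 6.58. The transcription factor genes Egr2 and Klf4, at 8.29 and 7.18 in tumour 2, were among the genes apart and high in that tumour. Klf4 was near the floor in the other tumours. Of 17 partners of middle T antigen signalling with a probe 9 were kept (49.6% of all named genes), and the probe of Src itself was not detected, at 5.96 to 5.98 in tumours 1, 2 and 4 and level with them in tumour 3. The kept ones included Akt2, at 10.42, 10.36, 10.33 and 9.96, and the scaffold subunit of protein phosphatase 2A, Ppp2r1a, at a mean of 9.2. Lipid synthesis genes were bright and even, with the stearoyl-CoA desaturase gene Scd2 at 13.33, 13.32, 13.10 and 13.46 and the cholesterol synthesis gene Hmgcs1 at 11.26, 11.78, 11.46 and 11.31.

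**Figure D4:**
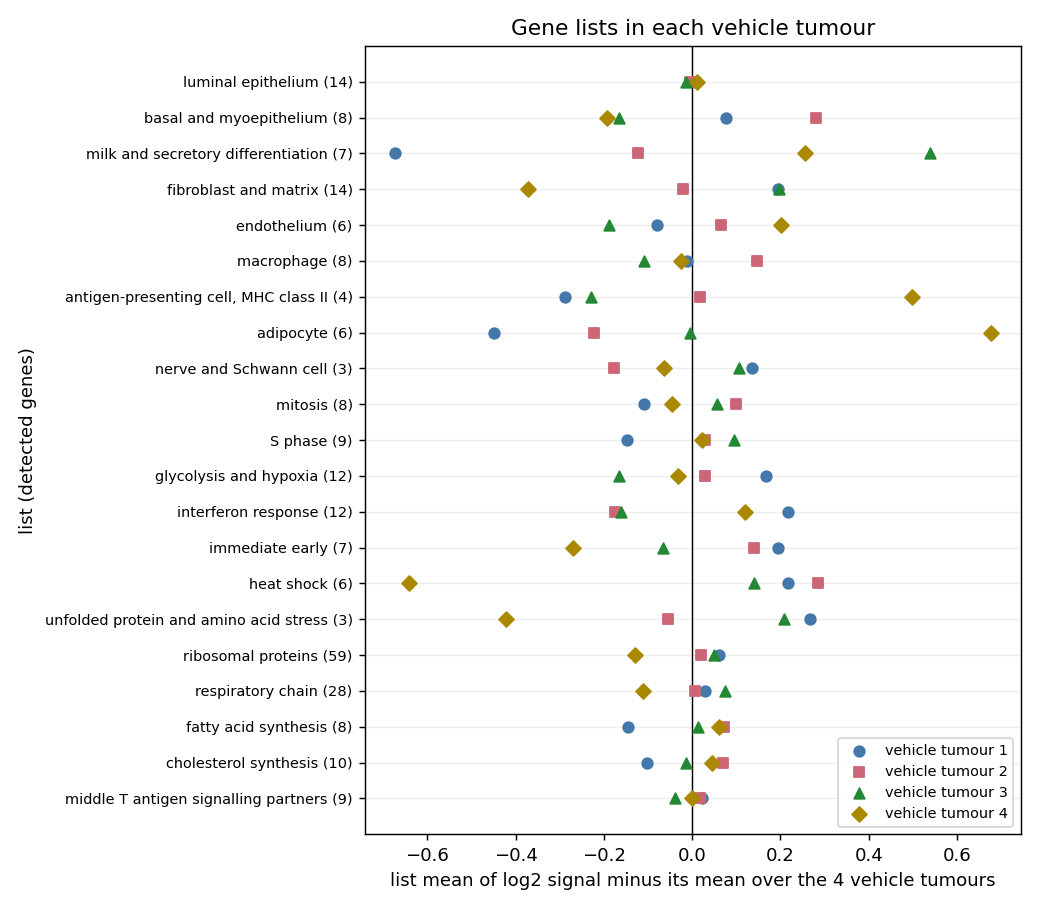
Mean log2 signal of each gene list minus its mean over the 4 vehicle tumours (horizontal axis) in each vehicle tumour, for lists with at least 3 kept genes (number in brackets). The luminal list stays between -0.01 and 0.01, while the milk list runs from -0.67 in tumour 1 to 0.54 in tumour 3 and the adipocyte list from -0.45 in tumour 1 to 0.68 in tumour 4.

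Most genes varied little. The median SD over the 4 vehicle tumours was 0.141 on the log2 scale, with quartiles of 0.0827 and 0.226. Of 11062 probes, 816 had a range over 1 (7.38%), and 276 had it among tumours 1 to 3 alone (2.50%). Of 3780 genes, 287 had a range over 1, and 82 among tumours 1 to 3. Among bright genes the steadiest were Hdac3, a histone deacetylase, at 11.31, 11.29, 11.28 and 11.30, and the splicing factor gene Sf3b5 at 11.32, 11.34, 11.33 and 11.36. Eif4ebp1, Cox6b1 and Ppp6c followed, each with an SD of 0.02.

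**Figure D5:**
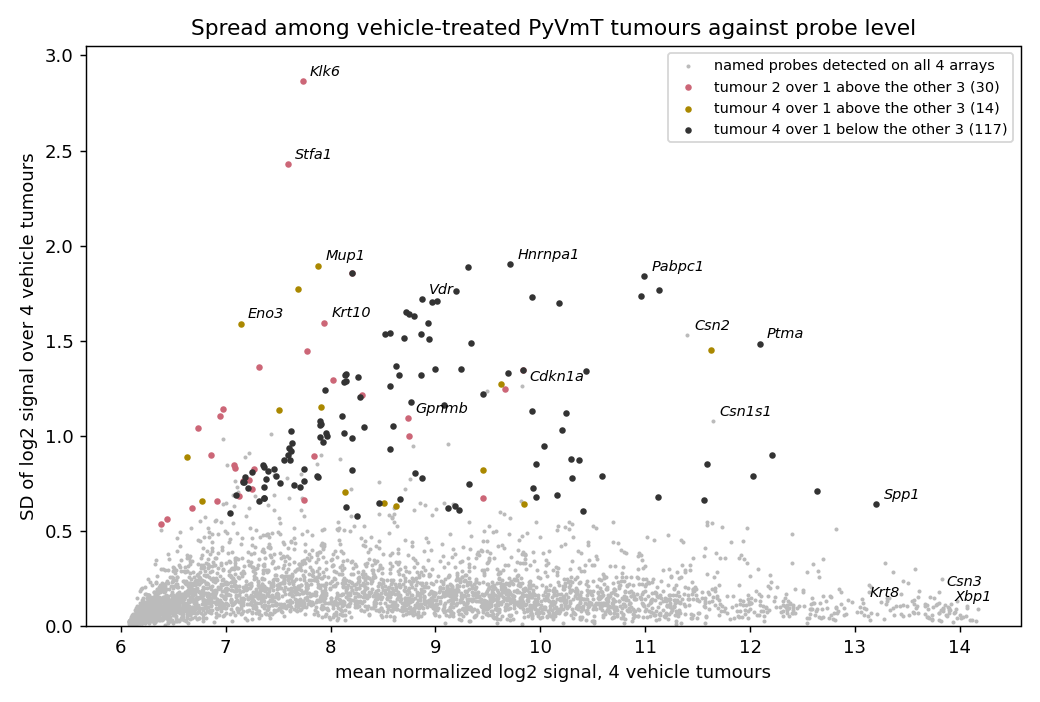
SD of the log2 signal over the 4 vehicle tumours (vertical axis) against the mean log2 signal (horizontal axis), 1 point for each kept named probe. Coloured points are the probes in which tumour 2 or tumour 4 lay more than 1 from the other 3, and the highest are Klk6 at an SD of 2.86 and Stfa1 at 2.43, both from tumour 2.

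The spread among vehicle tumours was smaller than among SKI-606 tumours at most probes, without passing a test over tumours. Over 10391 probes detected on all 8 arrays, the median absolute deviation of a tumour from its group mean was taken. It averaged 0.0959 ± 0.0235 in vehicle and 0.141 ± 0.0249 in SKI-606 tumours (mean and SD over 4 tumours each). A two-sided exact permutation test gave p = 0.0571, and 4 against 4 cannot go below 0.0286. Deviations within a group share a mean and so depend on each other, which makes this p approximate. Within the vehicle group the deviation was 0.130 in tumour 4 and between 0.0770 and 0.0939 in the other 3. The SD was the larger one in vehicle tumours at 31.4% of the probes, and the median log2 ratio of vehicle over SKI-606 variance was -1.07. Tested probe by probe with an F ratio of the variances and Benjamini-Hochberg adjustment, 0 probes (0%) varied more in vehicle tumours and 1 (0.00962%) varied less, against 267 and 922 at an unadjusted p under 0.05. With limma on absolute deviations the counts were 3 and 83 (0.0289% and 0.799%). On simulated data 200 probes were given a larger SD, some 8-fold and the others 50-fold. The limma test recovered 5.6% of those with the 8-fold larger SD, so its calls are not named. The F ratio recovered 9.8% of them, so neither test would find most changes of that size. With each group normalized alone, the SDs of these 10391 probes in the 2 groups had a rank correlation of 0.47. Of the 100 probes with the largest SD in vehicle tumours, 16 were among the 100 largest of the 10391 in SKI-606 tumours. Arrays of the 2 groups lay at separate ends of 1 chip, so that the place on the chip and the group cannot be told apart in these comparisons.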

How the data were processed

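The deposited signal table held, per the file headers, an average intensity for each of 24611 probes on each of the 8 arrays and a detection p-value for each of them. As the values showed, these intensities had not been normalized between arrays. A table of processed intensity for 11434 probes was deposited too, quantile-normalized on a linear scale as its values showed, which was used only as an alternative. The software behind either table is not given in the sources used here.

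Intensities were corrected by normexp with the negative controls worked out from detection p-values, quantile-normalized over all 8 arrays and taken to log2 after an offset of 16 (neqc of limma 3.58.1 in R 4.3.3). The 4 bacterial control probes were left out, which left 24607. Zero-padded numbers in the probe identifiers were read as Entrez Gene IDs, since 93.3% of 9490 such numbers matched the gene table, against 48.7% after adding 1 to each. Of the kept probes 4214 had a name and 6848 had none. Each gene took the value of its brightest kept probe, or by that of the largest SD where it was named for its SD.

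The tumours and the gene lists were chosen with earlier results of these data known, and the lists get no test. Genes were named by these rules: the 20 brightest probes, the 30 largest SDs, up to 4 members by SD and 2 by level of each list, the 5 smallest SDs among genes at a mean of at least 10, and 11 fixed genes, of which Xist had no probe named here. Genes in which 1 tumour stood apart were named after their values were seen. Results of 3 named genes are not reported here. On simulated data 200 probes were given a larger SD, some 8-fold and the others 50-fold. The test planned for differences in spread (limma on absolute deviations, Benjamini-Hochberg) recovered 9.6% of those with the 50-fold larger SD, with 19.6 false calls on average. An F ratio was therefore added, which recovered 93.4% of these and 9.8% at an 8-fold larger SD, with 5.5 false calls, and genes called by the planned test were not named, against the rule. The exact permutation test, which ran through all arrangements, compared the mean deviation of 4 against 4 tumours. Each deviation was taken from the mean of the tumour's own group and was not recomputed for each arrangement, so its p is approximate.

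Just inside the detection threshold, 293 probes had a highest p of 0.04 to 0.05 and a median log2 signal of 6.11. Just outside it, 180 probes with 0.05 to 0.06 had a median of 6.10. Alternatives covered the detection threshold, background correction, normalization, offset, the deposited table, the mean of a gene's probes, and each tumour left out. Titles give the numbers 1, 2 and 4 in both groups, and correlations of same-numbered deviations were 0.02, 0.54 and -0.04, so the numbers were not taken to pair the tumours.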

Additional observations from a re-analysis of the deposited data

Results flagged for a closer look

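In a group of 4, a tumour is listed here where its gap to the nearest of the others takes up most of the range of the group, which chance gives in about 1 of 20 groups. Of 165 named genes with a value in all 4 tumours, 39 were listed, and many were named for a large SD in the first place. Over all kept probes, 901 were, with tumour 4 high at 288 and low at 248. No explanation was tested for any of them.

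Tumour 4 was low in 26 genes. Among these were the RNA and chromatin genes Hnrnpa1 at 6.86, Pabpc1 at 8.23, H3f3a at 8.48, Hmgb1 at 6.35, Rbbp7 at 7.11, Ptma at 9.87 and Ss18 at 7.33. The ribosome and translation genes were Rps6 at 7.63, Rpl30 at 6.68, Rpl6 at 11.58 and Nop53 at 6.57. The mitochondrial genes were Mdh2 at 6.49, Ndufb9 at 6.47 and the chaperonin gene Hspe1 at 8.57, and the secretory pathway genes Tmed10 at 8.36 and Ssr3 at 6.46. Others were Vdr at 6.29, the microtubule regulator Stmn1 at 6.44, Dynll1 at 6.25, Usp1 at 6.29, Zbtb18 at 6.54, Ppp4r1 at 6.27, Trip12 at 6.23, Spp1 at 12.24, the 14-3-3 gene Ywhaq at 9.59 and Tax1bp3 at 12.50. The heat shock list mean was low as well, at -0.64.

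Tumour 4 was high in Eno3 at 9.53, H2-DMa at 7.23 and Ighm at 6.47. Tumour 2 was high in Klk6 at 12.03, Stfa1 at 11.22, Krt10 at 10.32, Klf4 at 7.18 and Rpl36a at 13.97, and low in Krt8 at 12.89 and Loxl1, a lysyl oxidase gene, at 8.98. Tumour 1 was high in Rpl13 at 14.05 and Egln3 at 11.27, and tumour 3 low in the myosin kinase gene Mylk at 7.26. In Rpl36a, Rpl13 and Tax1bp3 the whole range was under 0.2, so the gap is small in size.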

How the results depend on the processing

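The number of probes kept was 9140 with a detection p under 0.01 and 11904 with detection on 3 of 4 arrays. Probes with a range over 1 numbered 662 to 920 over the other ways of normalizing and 286 to 734 with 1 tumour left out, the lowest without tumour 4 (with detection then asked of 3 arrays). Compartment genes with a range over 1 numbered 23, then 21 or 22 under the other processing and 14 to 21 with 1 tumour left out, again lowest without tumour 4. Of the 20 brightest named genes, 18 or more stayed among the 20 in every setting run. Probes low in tumour 4 numbered 211 to 316 and probes high in tumour 2 numbered 93 to 130. Probes high in tumour 4 fell from 44 to 27 with scaling to the same median and to 29 at an offset of 50, and numbered 63 to 67 with another tumour left out. The deviation of vehicle minus SKI-606 tumours was -0.10 with scaling to the same median (exact permutation p = 0.0286), and -0.07 to -0.02 with 1 tumour left out (exact permutation p = 0.0571 to 0.286). Leaving out a tumour also raises the lowest p that this test can give. The cause of none of these changes was tested.

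With limma on absolute deviations, probes more variable and less variable in vehicle tumours numbered 3 and 83. They were 1 and 44 around the group median, 13 and 112 with no filter on detection, and 8 and 375 with scaling to the same median. With 1 array left out the first was 0 in every case and the second 0 to 65, at 0 without any one of the SKI-606 tumours, where 148 to 244 and 1277 to 1903 passed an unadjusted p under 0.05 (the first was 115 to 501 without a vehicle tumour). With the F ratio they were 0 and 1. With the replicate number as a block, limma gave 0 for both, against 134 and 729 at an unadjusted p under 0.05. The range of Csn1s1 was 1.13 without tumour 1 against 2.62. Of 1007 SDs of named genes under other processing 957 moved by less than a 0.5 share of their value, and of 720 list means 696 by less than their SD. Depth on these arrays is the signal over background: values near 6 lie at the floor, and values near 14 at the top, where differences are compressed.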
